A study of Mus musculus with 48 samples.

Results

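Huntingtin and 8 genes whose proteins bind or modify it were followed in the mouse striatum. The 9 genes, Htt, Hap1, Hip1, Hip1r, F8a, Zdhhc17, Zdhhc13, Sh3gl3 and Prpf40b, were taken by symbol from the 48795 genes of the deposited count table, and all 9 were among the 19714 genes with enough counts to be tested. Striatal RNA was sequenced from 48 mice, 8 of each of 6 genotypes with 4 females and 4 males. The genotypes were Q140, Q140 x Msh3+/-, Q140 x Msh3-/-, Msh3+/-, Msh3-/- and wild type (WT). Q140 mice carry 1 knock-in Htt allele with an expanded CAG repeat, expressed from its own locus in every cell type that uses Htt, and the labels give these mice as heterozygous. Msh3 encodes a DNA mismatch repair protein. All mice were on a C57BL/6 background. The labels give the age as 12 months, but the extraction text in the same labels gives an earlier age at dissection, so the age of the tissue is uncertain. The design asks what the knock-in allele does to these RNAs in the striatum and whether the number of Msh3 alleles changes that.

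Huntingtin is a large scaffold protein that joins vesicles to molecular motors and takes part in endocytosis, autophagy and transcription. In Huntington's disease an expanded CAG repeat in the first exon lengthens its glutamine tract, and the spiny projection neurons of the striatum are the cells most affected. The repeat also lengthens further in somatic cells during life, which in mice needs Msh3. The partners described here act in transport (Hap1), in clathrin-coated endocytosis (Hip1, Hip1r and Sh3gl3), as a tightly bound subunit (F8a), as palmitoyltransferases that attach a fatty acid to huntingtin (Zdhhc17 and Zdhhc13) and in the nucleus (Prpf40b).

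The stretch of Htt that the knock-in allele alters is shown first, since it sets the genotypes apart and is also where Sh3gl3 and Prpf40b products bind. Htt (ENSMUSG00000029104) spans chr5:34761740-34912534 on the plus strand of GRCm38, and its annotated coding transcript has 67 exons. The first 135 coding bases in exon 1, chr5:34761907-34762041 of the mouse reference transcript in GENCODE M21, are given with the uninterrupted glutamine tract in capitals.
Htt: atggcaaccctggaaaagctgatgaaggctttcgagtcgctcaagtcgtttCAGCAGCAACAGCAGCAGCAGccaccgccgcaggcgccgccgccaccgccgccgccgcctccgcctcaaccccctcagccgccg
The reference tract holds 7 glutamine codons, 6 CAG and 1 CAA, at codons 18 to 24, and 17 of the 21 codons printed after it encode proline, the stretch that SH3 and WW domains bind. The knock-in allele itself is not shown, and a count per gene does not separate its RNA from that of the other allele.

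The tissue and the genotype labels were checked before the 9 genes. Libraries held 38.9 to 60.9 M counts (median 47.3 M, where M is 1e+06). The 12 spiny projection neuron markers were abundant in every library, and the hypothalamic markers Otp, Avp, Oxt, Hcrt and Pmch had 0 counts in at least 1 library each. A lowest count of 0 does not show absence from the other libraries. The remaining listed thalamic and hypothalamic markers, Tcf7l2 and Slc17a6, were present in every library, with at least 177 and 5 counts. Msh3 RNA separated the labelled Msh3 genotypes without overlap, but it was higher with each allele labelled as lost, averaging 122 ± 3.1 CPM for the libraries labelled Msh3-/- and 73.9 ± 1.56 CPM for those labelled Msh3+/-, against 29.0 ± 1.61 CPM for WT (SD, n = 8 each). That direction is opposite to a loss of RNA, and gene-level counts say nothing of the protein, so every Msh3 genotype below is as labelled. CPM here are counts per 1e+06 counts after TMM scaling, a correction for differences in RNA composition between libraries. Folds are log2 changes with a standard error (SE), from edgeR's quasi-likelihood test with Benjamini-Hochberg adjustment over all genes tested, and a gene was called at an adjusted p under 0.05. In 4 libraries, which are Q140 x Msh3+/- female 1, Q140 x Msh3-/- male 1, Msh3-/- female 1 and Msh3-/- male 1, the score on the main axis of variation within genotype and sex lay more than 4 robust deviations from the median. Where a value without them is given below, the value with them stands beside it.

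Per base of gene model, the 9 RNAs covered a wide range. Hap1 stood highest at 44.8 ± 5.36 FPKM over the 48 libraries (SD), and Zdhhc17 followed at 30.7 ± 1.05 FPKM. Prpf40b at 13.4 ± 0.871 FPKM and Hip1r at 13.1 ± 1.05 FPKM lay within each other's spread. Zdhhc13 at 9.62 ± 0.797, Htt at 9.14 ± 0.474 and Sh3gl3 at 8.89 ± 0.593 FPKM also overlapped. Hip1 was at 6.42 ± 0.272 FPKM and F8a was lowest at 3.57 ± 0.491 FPKM. Among the genes tested, Hap1 lay above 95.2% and F8a above 51.1% on this scale. For 8 of the 9 genes the length behind the deposited FPKM equalled the union of all annotated exons in GENCODE M21. For Htt that union is 24438 bases, against 13215 bases for its coding transcript, because 7 of its 8 annotated transcripts are retained-intron forms. Divided by the longest coding transcript, the mean level of Htt was 16.9 FPKM, that of Sh3gl3 23.3, that of Prpf40b 20.03 and that of Hip1 10.6 FPKM, so Sh3gl3 and Htt came to lie above Hip1r, at 14.3 FPKM, only with this length. The steadiest of the 9 was Zdhhc17, with a coefficient of variation of 3.09% over all 48 libraries, and the most variable was F8a, with 12.4%.

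**Figure D1:**
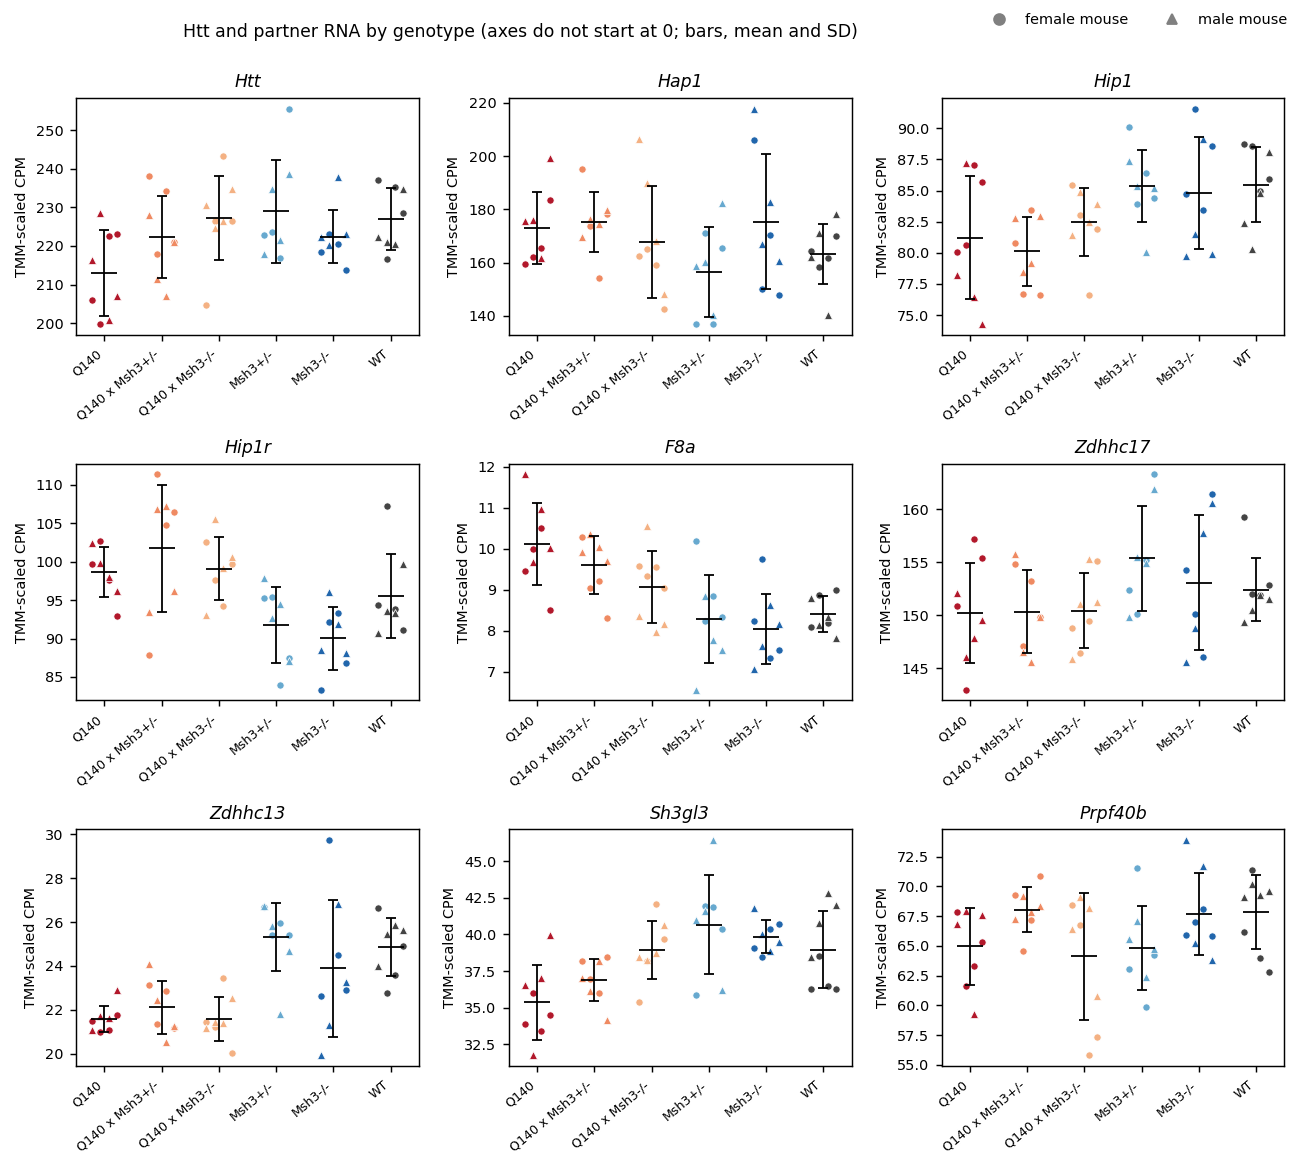
TMM-scaled CPM of the 9 genes (1 panel each, vertical axes not starting at 0) in each of the 48 mice, by genotype, with females as circles and males as triangles; black bars give the mean and SD of 8 mice. F8a is higher and Zdhhc13 lower in the 3 genotypes with Q140, the Zdhhc17 groups lie on top of each other, and the Htt ranges overlap throughout.

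Q140 shifted 4 of the 9 genes against WT, beside 33.0% of all genes tested. F8a rose, while Zdhhc13, Sh3gl3 and Htt fell, with the largest difference at 20.4% of the WT level. On the Msh3+/- background 5 genes were called (background 21.5%), Hip1r and F8a higher in Q140 x Msh3+/- mice and Hip1, Zdhhc13 and Sh3gl3 lower. On the Msh3-/- background 1 gene was called (background 7.86%, with 4.01% higher and 3.84% lower), Hip1r, which was higher in Q140 x Msh3-/- mice. Averaged over the 3 backgrounds, the Q140 effect was called for 5 genes (background 41.0%, with 21.4% higher and 19.6% lower), again Hip1r and F8a higher and Hip1, Zdhhc13 and Sh3gl3 lower. With 9 genes, no such share is read as set apart from its background. The median log2 change of the 9 genes was -0.062 in Q140 minus WT, against -0.0041 over all genes tested. The scaling decides part of this picture. RLE, another scaling, changed little in Q140 minus WT, with 3317 genes higher and 3181 lower, and 1 higher and 3 lower among the 9. With libraries scaled by their total counts alone, the median of all genes in Q140 minus WT moved to 0.065, the calls over all genes split into 5773 higher and 2064 lower in place of 3358 and 3148, and that of the 9 genes into 2 higher (F8a and Hip1r) and 1 lower (Zdhhc13). For the averaged effect on the 9 genes it gave 3 higher (F8a, Hip1r and Hap1) and 1 lower (Zdhhc13), and their median log2 change was 0.018 in place of -0.031. The same scaling split the calls over all genes into 4507 higher and 1351 lower on the Msh3+/- background (TMM 2120 and 2127), 1252 and 623 on the Msh3-/- background (TMM 791 and 758), 6823 and 2491 for the averaged effect (TMM 4214 and 3861), 1283 and 2869 for Q140 x Msh3-/- minus Q140 (TMM 1725 and 1492), 537 and 1194 for the Q140 by Msh3-/- interaction (TMM 806 and 407) and 281 and 687 for female minus male (TMM 514 and 325).

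**Figure D2:**
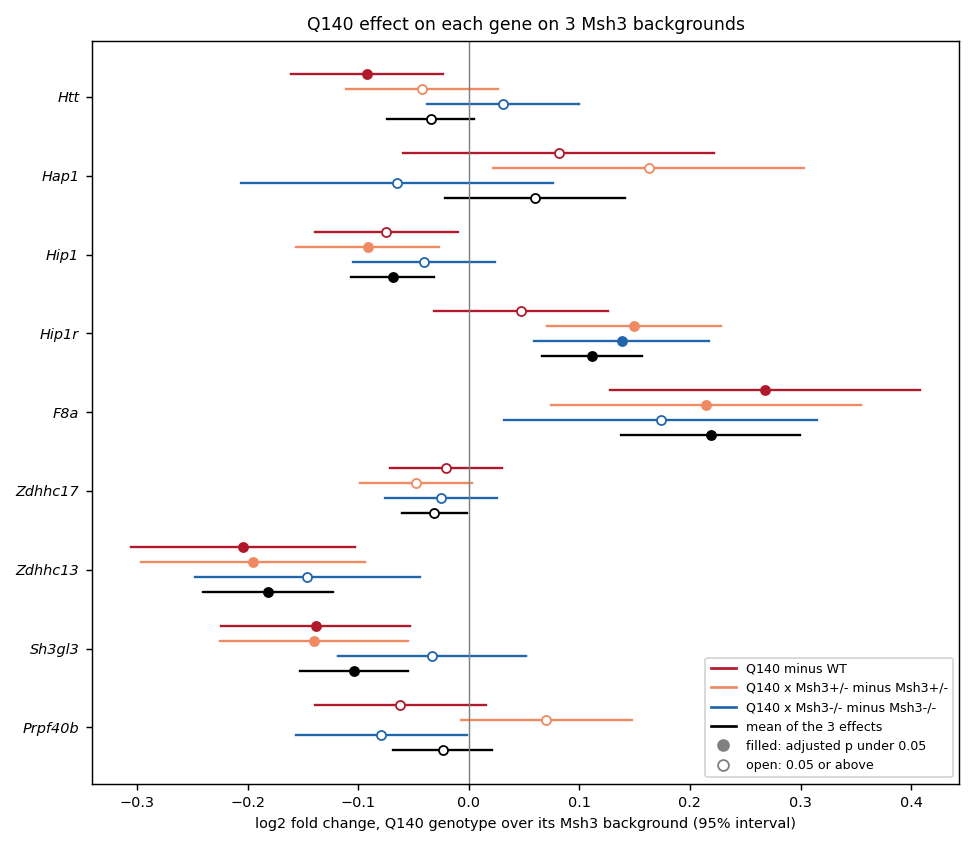
Log2 fold change of each gene with its 95% interval for Q140 minus WT, Q140 x Msh3+/- minus Msh3+/-, Q140 x Msh3-/- minus Msh3-/- and their mean, with filled points where the adjusted p was under 0.05. The intervals of F8a lie above 0 and those of Zdhhc13 below 0 on all 3 backgrounds, whereas the Htt estimates run from -0.092 to 0.031.

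Htt itself differed little between genotypes. In the 8 Q140 mice it had 206, 199.8, 223, 223, 216, 229, 201 and 207 CPM, against 237, 217, 235, 229, 222, 221, 220.4 and 235 CPM in the 8 WT mice (females first in each group). The Q140 values were lower on the whole but overlapped the WT values, with 5 of 8 Q140 mice under the lowest WT mouse. The means were 213 ± 11 CPM in Q140 and 227 ± 7.95 CPM in WT mice (SD, n = 8 each), a difference of -6.16% with a 95% interval of -10.5% to -1.59% (log2 fold change -0.092, SE 0.034, adjusted p = 0.0314). That call is fragile. It was lost with total-count scaling (-0.022, adjusted p = 0.681) and with no filter on low counts (-0.090, adjusted p = 0.0596). It was also lost with the plate column of the library as a term (-0.085, adjusted p = 0.0693). Plate column was uneven between these genotypes, with 4 Q140 libraries but 1 WT library in column 4. No Q140 library was in columns 1 or 6. The call was lost as well without the 4 libraries whose sample names have another prefix (-0.088, adjusted p = 0.107). These are Q140 female 4 and Q140 male 4 (Msh3Q), WT female 3 (MQC) and WT female 4 (PQ), so all lie in this contrast. Leaving out any of 7 single libraries also ended the call (log2 -0.088 to -0.080, adjusted p 0.0562 to 0.0757). They were Q140 females 1 and 2, Q140 males 3 and 4, WT females 1 and 3 and WT male 4. In FPKM, which rest on total counts, Htt was at 8.93 ± 0.553 in Q140 and 9.07 ± 0.313 in WT mice (SD, n = 8 each).

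Htt averaged 222 ± 10.7 CPM in Q140 x Msh3+/- mice, against 229 ± 13.2 CPM in Msh3+/- mice. It averaged 227 ± 10.9 CPM in Q140 x Msh3-/- mice, against 222 ± 6.93 CPM in Msh3-/- mice (SD over 8 animals in every group). The crosses did not differ from their own backgrounds past the threshold (log2 -0.042, adjusted p = 0.426, and 0.031, adjusted p = 0.663), and the first turned to 0.02 with total counts. The averaged Q140 effect on Htt was -2.36%, with an interval of -5.0% to 0.36% (adjusted p = 0.162), and it turned to a log2 of 0.015 with total counts. Q140 x Msh3-/- mice were 6.66% above Q140 mice (interval 1.71% to 11.9%, log2 0.093, SE 0.034, adjusted p = 0.0512), with 7 of 8 above the Q140 mean. This difference lay close to the threshold and passed it with DESeq2 (adjusted p = 0.0444). The test of whether Msh3 loss changed the Q140 effect on Htt gave 0.12 (SE 0.048, adjusted p = 0.127). The order of the 6 group means, with Q140 lowest and Msh3+/- highest, therefore separates no neighbours beyond their spread.

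F8a, which encodes a protein that binds huntingtin tightly, showed the largest relative difference of the 9. It is a gene of 1 exon at chrX:73228291-73230795, plus strand. Q140 mice had 8.51 CPM at the lowest, a median of 10.003 CPM and 11.8 CPM at the highest, against 7.81, 8.26 and 9.0 CPM in WT mice. All but 1 of the Q140 mice lay above the highest WT mouse. The rise was 20.4% (interval 9.28% to 32.7%, log2 0.27, SE 0.0693, adjusted p = 0.00179). F8a was also higher in Q140 x Msh3+/- mice, with a median of 9.81 CPM against 8.29 CPM in Msh3+/- mice (log2 0.21, SE 0.0695, adjusted p = 0.0196), a call that was lost with plate column as a term (0.18, adjusted p = 0.0824). Q140 x Msh3-/- mice had a median of 9.19 CPM against 7.90 CPM in Msh3-/- mice, which did not pass (log2 0.17, SE 0.07, adjusted p = 0.124). Over the 3 backgrounds the mean was 9.6 ± 0.936 CPM in the 24 mice with Q140 and 8.24 ± 0.81 CPM in the 24 without, a rise of 16.4% (interval 10.01% to 23.1%, adjusted p = 1.09e-05). The group means fall in order from Q140 through both crosses to the groups without Q140, but the difference between Q140 x Msh3-/- and Q140 (log2 -0.16, SE 0.069, adjusted p = 0.113) and the Q140 by Msh3-/- interaction (-0.094, adjusted p = 0.677) did not pass. With total counts, Q140 x Msh3-/- minus Q140 passed, at -0.19 (adjusted p = 0.0365). F8a lies inside Xlr5a on the opposite strand, and Xlr5a had 0 to 5 counts per library, against 301 to 611 counts for F8a.

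Hap1, which links huntingtin to dynactin and kinesin, was the most abundant member per length and was called in no comparison. It lies at chr11:100347327-100356128 on the minus strand. Q140 mice had 159 CPM at the lowest, a median of 171 CPM and 199.2 CPM at the highest, against 141, 163 and 178 CPM in WT mice. The ranges overlapped broadly, and the difference was 5.8% with an interval of -4.03% to 16.7% (adjusted p = 0.404). Hap1 spread most in Msh3-/- mice, at 175 ± 25.3 CPM (SD, n = 8). The largest Hap1 difference was in Q140 x Msh3+/- minus Msh3+/- (log2 0.16, SE 0.0698, adjusted p = 0.0932), and it passed with total counts (0.22, adjusted p = 0.0211), as did the averaged effect (0.11, adjusted p = 0.0375).

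The 3 endocytic partners moved in different directions. Hip1, a clathrin and phosphoinositide adaptor (chr5:135406531-135545120, minus strand), averaged 81.3 ± 3.62 CPM in the 24 mice with Q140 and 85.2 ± 3.41 CPM in the 24 without. The averaged effect was -4.66% (interval -7.09% to -2.16%, adjusted p = 0.00196) and was lost with total counts (log2 -0.019, adjusted p = 0.448). Of single backgrounds, Hip1 passed only in Q140 x Msh3+/- minus Msh3+/- (-0.091, adjusted p = 0.0323), where all 8 Q140 x Msh3+/- mice lay under the Msh3+/- mean. That call was lost with no low-count filter, with plate column and with total counts (adjusted p = 0.053, 0.0718 and 0.558). The test of Hip1 for any difference among the genotypes (adjusted p = 0.0437) was lost under 6 of the 9 other settings. Hip1 in Q140 minus WT gave -0.074 (adjusted p = 0.0669).

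Hip1r, the relative of Hip1 that ties clathrin coats to actin (chr5:123973628-124005558, plus strand), went the other way. Q140 x Msh3-/- mice had 93.1 CPM at the lowest, a median of 99.4 CPM and 106 CPM at the highest, against 83.3, 90.2 and 96.0 CPM in Msh3-/- mice. Of the Q140 x Msh3-/- mice, 6 of 8 lay above the highest Msh3-/- mouse. The rise was 10.1% (interval 4.2% to 16.2%, log2 0.14, SE 0.0391, adjusted p = 0.0182). Hip1r rose in Q140 x Msh3+/- mice as well, with a median of 106 CPM against 93.5 CPM in Msh3+/- mice (log2 0.15, SE 0.039, adjusted p = 0.0031). In Q140 minus WT it did not pass (0.047, SE 0.039, adjusted p = 0.385), while with total counts it did (0.12, adjusted p = 0.0147). The 2 interactions with Msh3 genotype were 0.10 (adjusted p = 0.583) and 0.091 (adjusted p = 0.387), so the effect was not shown to differ between backgrounds. The averaged rise was 8.04% (interval 4.69% to 11.5%, adjusted p = 5.12e-05) and was called under every alternative run. The end of Hip1r overlaps Vps37b on the opposite strand, and Vps37b (median 1129 counts) fell in Q140 minus WT (log2 -0.21, adjusted p = 0.00139). The strand setting of the counting is not given, and the part of the overlap in either value was not tested.

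Sh3gl3, or endophilin A3, binds membranes and, through its SH3 domain, the proline stretch of huntingtin printed above. It lies at chr7:82173840-82307419, plus strand. Q140 mice had 31.7 CPM at the lowest, a median of 35.2 CPM and 39.99 CPM at the highest, against 36.2, 38.5 and 42.8 CPM in WT mice. The groups overlapped, and 7 of 8 Q140 mice lay under the WT mean. Sh3gl3 fell by 0.14 on the log2 scale in Q140 minus WT (SE 0.0422, adjusted p = 0.0082), a change of -9.15%, and by 0.14 in Q140 x Msh3+/- minus Msh3+/- (SE 0.0421, adjusted p = 0.0115). Sh3gl3 averaged 38.9 ± 1.97 CPM in Q140 x Msh3-/- mice and 39.9 ± 1.1 CPM in Msh3-/- mice, and that difference did not pass (SD over 8 animals; change -2.26%, interval -7.86% to 3.68%, adjusted p = 0.717).

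Sh3gl3 was the only one of the 9 called between a cross and Q140. In Q140 x Msh3-/- minus Q140, 1 of 9 genes passed (background 16.3%, with 8.75% higher and 7.57% lower), with Sh3gl3 10.1% higher (interval 3.83% to 16.8%, log2 0.14, SE 0.0422, adjusted p = 0.0158) and all 8 Q140 x Msh3-/- mice above the Q140 mean. This contrast shares the 8 Q140 mice with Q140 minus WT. The interaction, which tests the change of the Q140 effect itself, did not pass (0.11, SE 0.0596, adjusted p = 0.346). The call against Q140 was lost without Q140 x Msh3-/- female 3 (0.12, adjusted p = 0.0534) and with total counts (0.10, adjusted p = 0.0717). Total counts also ended the Sh3gl3 calls in Q140 minus WT (-0.070, adjusted p = 0.193), in Q140 x Msh3+/- minus Msh3+/- (-0.077, adjusted p = 0.171) and in the averaged effect (-0.054, adjusted p = 0.0612).

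The palmitoyltransferases Zdhhc17 and Zdhhc13, both known to modify huntingtin, behaved differently. Zdhhc17 (chr10:110941780-111010140, minus strand) had its lowest group mean, 150.3 ± 4.72 CPM, in Q140 mice and its highest, 155 ± 4.96 CPM, in Msh3+/- mice, and averaged 152 ± 2.95 CPM in WT mice (SD over 8 animals). Its Q140 minus WT difference was -1.42%, with an interval of -4.83% to 2.11% (adjusted p = 0.574), and the averaged effect was -2.14% (interval -4.11% to -0.13%, adjusted p = 0.0807), which passed with DESeq2 (log2 -0.034, adjusted p = 0.0428) and turned to a log2 of 0.018 with total counts (adjusted p = 0.35).

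Zdhhc13 (chr7:48789003-48827440, plus strand) was lower with Q140. The 8 Q140 mice had 21.5, 20.97, 21.1, 21.8, 21.1, 21.7, 21.6 and 22.9 CPM, against 26.7, 22.8, 23.6, 24.9, 24.01, 25.5, 25.9 and 25.6 CPM in the 8 WT mice. The groups overlapped in 1 mouse, Q140 male 4, and the other 7 Q140 mice lay under the lowest WT mouse. The change was -13.2% (interval -19.1% to -6.86%, log2 -0.20, SE 0.0501, adjusted p = 0.00103). In Q140 x Msh3+/- mice the median was 21.9 CPM against 25.6 CPM in Msh3+/- mice (log2 -0.19, SE 0.0501, adjusted p = 0.00271). Zdhhc13 averaged 21.6 ± 1.01 CPM in Q140 x Msh3-/- mice and 23.9 ± 3.13 CPM in Msh3-/- mice (SD over 8 animals), which did not pass (log2 -0.15, SE 0.0504, adjusted p = 0.062). It passed without the 4 libraries that stand apart, 2 of them Msh3-/- mice (-0.19, adjusted p = 0.016), and with DESeq2 (-0.15, adjusted p = 0.0456). All 8 Q140 x Msh3-/- mice lay under the Msh3-/- mean. Q140 x Msh3-/- minus Q140 was 0.022% with an interval of -6.78% to 7.32%, and the interaction was 0.058 (SE 0.0711, adjusted p = 0.737). Averaged over backgrounds the change was -11.8% (interval -15.3% to -8.17%, adjusted p = 7.49e-07), and it was called under every alternative run.

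**Figure D3:**
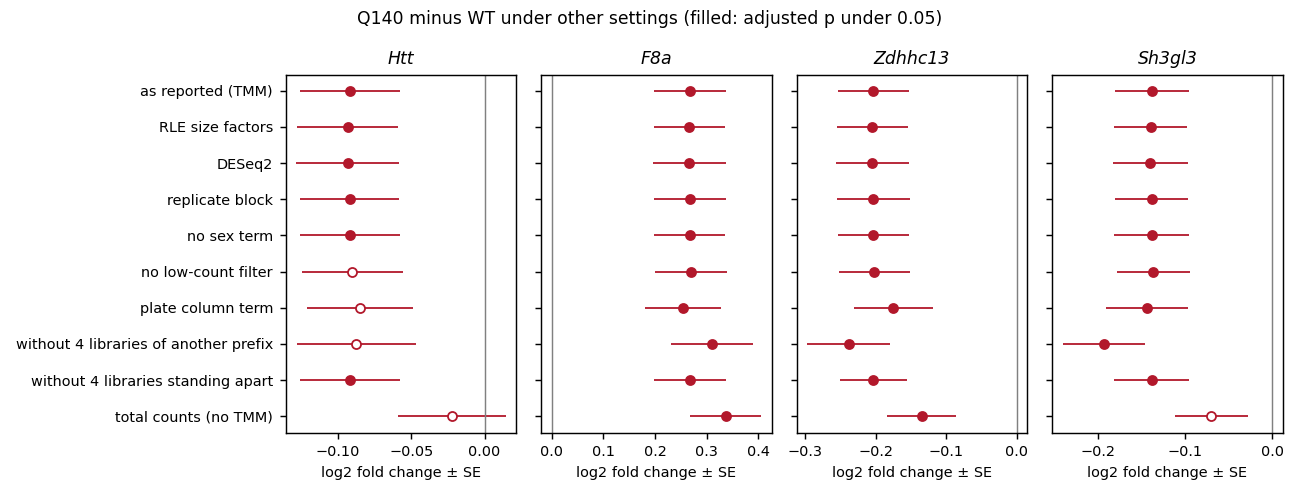
Log2 fold change ± SE of Htt, F8a, Zdhhc13 and Sh3gl3 in Q140 minus WT under the reported fit and 9 other settings, with filled points where the adjusted p was under 0.05. F8a and Zdhhc13 are filled throughout, Sh3gl3 opens with total counts, and Htt opens under 4 settings.

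Prpf40b, a WW-domain relative of yeast splicing factors that binds the proline stretch of huntingtin, lies at chr15:99295087-99317018, plus strand, and was called in no comparison. Q140 mice had 59.3 CPM at the lowest, a median of 66.1 CPM and 67.9 CPM at the highest, against 62.8, 69.2 and 71.4 CPM in WT mice, and these ranges overlapped. The difference was -4.2% with an interval of -9.19% to 1.07% (adjusted p = 0.223). The estimates on the other backgrounds had opposite signs, at 4.98% in Q140 x Msh3+/- minus Msh3+/- and -5.32% in Q140 x Msh3-/- minus Msh3-/- (adjusted p = 0.203 and 0.223). The first passed with total counts (log2 0.13, adjusted p = 0.0113). Prpf40b spread most in Q140 x Msh3-/- mice, with 64.1 ± 5.33 CPM (SD, n = 8).

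Without Q140, the number of Msh3 alleles left the 9 genes close to WT. No member was called in Msh3-/- minus WT (0.0457% of all genes were, 0.0355% lower) or in Msh3+/- minus WT (0.0101%). Without adjustment, 1 member passed 0.05 in Msh3-/- minus WT, Hip1r (log2 -0.086, adjusted p = 0.814), and 0 did in Msh3+/- minus WT. Over all 19714 genes tested, 1187 and 937 did. The other log2 differences from WT lay between -0.065 and 0.10. No member was called in Q140 x Msh3+/- minus Q140 (1.32% of genes), in the interaction of Q140 with Msh3+/- (0.0152%) or in that with Msh3-/- (6.15%, with 4.09% higher). Without adjustment 0, 1 and 1 members passed 0.05 in these tests, Prpf40b in the interaction with Msh3+/- (0.13, adjusted p = 0.425) and Htt in that with Msh3-/-. Over all 19714 genes, 2757, 1791 and 3742 passed 0.05 without adjustment. DESeq2 called 0 members in each of these 5 tests. The test for any difference among the 6 genotypes called Hip1, Hip1r, F8a, Zdhhc13 and Sh3gl3 (background 34.9%).

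Sex made no called difference in any of the 9 genes, beside 4.26% of all genes (2.61% higher and 1.65% lower in females). Of the 9, 0 passed without adjustment (3601 of all 19714 genes did) or with DESeq2. Hap1 had the largest sex difference, at 164 ± 16.2 CPM in females and 173 ± 18.6 CPM in males (n = 24 each, log2 -0.074, adjusted p = 0.339). The Q140 effect did not differ by sex at the threshold for any of the 9 (background 0%, with 611 of 19714 genes under 0.05 without adjustment). Without adjustment 1 member passed 0.05, F8a, whose Q140 effect was 0.16 smaller in females on the log2 scale (difference -0.16, SE 0.0765, adjusted p = 1.0), and DESeq2 called 0.

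Cell type markers were read beside these genes. The summed level of the 12 spiny projection neuron markers had a median of 7390 CPM in Q140 (range 6828 to 7676) and 12781 CPM in WT mice (range 12045 to 13521). The median was 8192 CPM for Q140 x Msh3+/-, against 12725 CPM for Msh3+/- mice, and 10131 CPM for Q140 x Msh3-/-, against 12903 CPM for Msh3-/- mice. Summed astrocyte markers had a median of 3798 CPM in Q140 (3640 to 3935) and 4396 CPM in WT mice (4195 to 4638), oligodendrocyte markers 5106 (4744 to 5669) and 6072 CPM (5305 to 6349), microglia markers 293 (264 to 305) and 325 CPM (318 to 385), and endothelial and mural markers 149 (130.3 to 161) and 182 CPM (168 to 226). Interneuron markers summed to 331 and 375 CPM, cortical neuron markers to 51.7 (44.4 to 57.0) and 51.3 CPM (44.0 to 60.3), and thalamic and hypothalamic markers to 6.82 and 7.76 CPM. In Q140 minus WT, 10 of 12 spiny projection neuron markers fell and 1 rose, and 4 of 6 astrocyte, 2 of 6 oligodendrocyte, 4 of 6 microglia, 5 of 6 endothelial and mural and 2 of 6 interneuron markers fell, beside 16.0% of all genes. Of the 6 cortical markers 2 rose and 1 fell, and 0 of 2 tested thalamic and hypothalamic markers passed. With total counts, 1 astrocyte and 2 microglia markers fell, 1 oligodendrocyte marker rose and 2 fell, 2 cortical markers rose and 0 fell, and the counts of the other marker lists were the same. Single libraries had more cortical signal: summed cortical markers reached 123 CPM in Q140 x Msh3-/- (median 55.7 CPM) and 66.5 CPM in Q140 x Msh3+/- mice (median 60.0 CPM), against 84.1 CPM in Msh3-/- (median 48.1 CPM) and 123 CPM in Msh3+/- mice (median 48.5 CPM). The median log2 change of the 6 cortical markers was 0.43 in Q140 x Msh3-/- minus Msh3-/- and 0.51 in Q140 x Msh3-/- minus Q140, with 1 marker called in each, higher. In bulk tissue, fewer cells of a type and less RNA per cell cannot be told apart, and the part of these shifts in the results for the 9 genes was not tested.

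Within genotype and sex, most pairs of the 9 genes showed no correlation past the threshold. Of the 36 pairs, 5 passed, 2 positive and 3 negative, on both Pearson's and Spearman's correlation after adjustment (100000 permutations within genotype and sex). The share among pairs of other genes was not computed, so the 5 are not read as a trait of these genes. Htt and Zdhhc17 rose and fell together (r = 0.47, permutation p = 0.00255, adjusted p = 0.0293; rho = 0.49, permutation p = 0.00207, adjusted p = 0.0254; r = 0.43 without the 2 mice farthest out). Hap1 and Prpf40b did as well (r = 0.48, permutation p = 0.00115, adjusted p = 0.0207; rho = 0.47, permutation p = 0.00212, adjusted p = 0.0254; r = 0.49 without 2 mice). Hip1 and Sh3gl3 were opposed (r = -0.58, permutation p = 0.00049, adjusted p = 0.0176; rho = -0.49, permutation p = 0.00204, adjusted p = 0.0254; r = -0.50 without 2 mice). Hip1r was opposed to Zdhhc17 (r = -0.45, permutation p = 0.00326, adjusted p = 0.0293; rho = -0.46, permutation p = 0.00378, adjusted p = 0.0311; r = -0.44 without 2 mice) and to Htt (r = -0.44, permutation p = 0.00459, adjusted p = 0.0331; rho = -0.45, permutation p = 0.00432, adjusted p = 0.0311; r = -0.43 without 2 mice). Without the 4 libraries that stand apart, r was 0.48, 0.50, -0.59, -0.56 and -0.44 for these pairs in the order given. All values of a mouse come from 1 library and share its scaling and RNA composition.

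The tested genes most like each member over the 48 libraries are given as a description, with no test, since they were picked for their correlation. For Htt these included Nbea (r = 0.66 over the libraries, 0.58 within genotype and sex), Lyst (0.64 and 0.64), Kcnq3 (0.63 and 0.58) and Nhsl2 (0.63 and 0.67). F8a was most like Pde4d (0.75), but within genotype and sex that value was 0.40. Zdhhc13 was most like Socs7 (0.82 and 0.70), Sh3gl3 most like H2-DMa (0.83 and 0.69), and Prpf40b most like Lrrc45 (0.86 and 0.84).

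The wider set of genes around huntingtin was read in the same way. Of 13 genes for motors and Hap1 partners, 6 rose and 3 fell in Q140 minus WT (17% and 16.0% over all genes), with a median log2 of 0.034 (8 and 3 with total counts). Over all 19714 genes tested, total counts gave 5773 higher and 2064 lower, which is the background of every total-count split below. Itpr1, the calcium release channel that binds the huntingtin and Hap1 complex, had 1207 ± 24 CPM in Q140 and 1785 ± 88.5 CPM in WT mice (SD, n = 8 each; log2 -0.56, SE 0.0409, adjusted p = 1.55e-16). It was also lower in Q140 x Msh3-/- minus Msh3-/- (-0.22, SE 0.0408, adjusted p = 0.000146). Ahi1, the Joubert syndrome gene whose product binds Hap1, rose to 332 ± 40.1 CPM in Q140, against 237 ± 11.7 CPM in WT mice (log2 0.48, SE 0.0618, adjusted p = 1.66e-08), and was not called on the Msh3-/- background (0.092, adjusted p = 0.416). Kif5c, a kinesin heavy chain, and Kalrn, a guanine nucleotide exchange factor first found as a Hap1 partner in rat, fell by 0.27 (SE 0.0352) and 0.28 (SE 0.0481).

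Of 12 nuclear partners, 4 rose and 2 fell in Q140 minus WT (7 and 1 with total counts). Taf4, a TFIID subunit, fell by 0.30 (SE 0.0405, adjusted p = 4.13e-08) and on the Msh3-/- background by 0.15 (adjusted p = 0.0164). Ncor1, a corepressor, rose by 0.14 (adjusted p = 0.00024). The call for Tbp, the TATA-binding protein, at -0.0997 (adjusted p = 0.0456), was lost with total counts (-0.031, adjusted p = 0.6).

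Of 13 endocytic partners and relatives, 1 rose and 1 fell in Q140 minus WT, and with total counts 7 rose and 1 fell. Pacsin1, an endocytic protein that binds huntingtin, fell by 0.18 (SE 0.0337, adjusted p = 1.61e-05), and Dnm1, the neuronal dynamin, rose by 0.10 (adjusted p = 0.0048). Sh3gl2, the relative of Sh3gl3, gave 0.029 (adjusted p = 0.634). Of 13 enzymes and adaptors that cleave or modify huntingtin, 2 rose and 2 fell beside the same shares of all genes, and with total counts 6 rose and 1 fell. Casp6, a caspase that cleaves huntingtin, had 2.41 ± 0.294 CPM in Q140 and 3.46 ± 0.494 CPM in WT mice (SD over 8 animals), a fall of 0.52 on the log2 scale (SE 0.0965, adjusted p = 2.24e-05). Sqstm1, an autophagy receptor, rose by 0.18 (adjusted p = 2.69e-05).

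Of 22 other palmitoyltransferase genes 19 were tested, and 7 rose and 4 fell in Q140 minus WT (10 and 1 with total counts). Zdhhc2 rose by 0.35 (SE 0.0497, adjusted p = 1.3e-07), Zdhhc20 by 0.16 (adjusted p = 0.000289) and Zdhhc15 by 0.19 (adjusted p = 0.0172), and Zdhhc18 fell by 0.33 (SE 0.0415, adjusted p = 5.07e-09). Of 5 substrates known for Zdhhc17, 1 fell beside the same share of all genes, and with total counts 2 others rose. Dlg4, the postsynaptic scaffold PSD-95, fell by 0.31 (SE 0.0313, adjusted p = 1.49e-11).

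The neighbours of Htt on chromosome 5 were read for comparison with Htt itself. Of 13 listed genes within 366 kb 12 were tested, and 4 rose and 4 fell in Q140 minus WT (6 and 3 with total counts). Adra2c, an adrenergic receptor gene 366 kb away, had 31.9 ± 2.06 CPM in Q140 and 45.5 ± 3.17 CPM in WT mice (SD, n = 8 each; log2 -0.51, SE 0.0433, adjusted p = 2.68e-14). Rgs12, a G protein regulator 36.9 kb away, fell by 0.38 (SE 0.0469, adjusted p = 4.14e-09). Add1, an adducin, fell by 0.17 (SE 0.0278), and Mfsd10 rose by 0.31 (SE 0.0639, adjusted p = 0.000133). Msantd1, which overlaps the end of Htt on the same strand, was not called (-0.021, adjusted p = 0.896). Those 4 were named for their small p in the averaged effect. The uncalled neighbours Lrpap1 (0.044), Sh3bp2 (-0.060) and Fam193a (0.0065) were named after their values were seen, so no comparison with Htt (-0.092) is drawn from them. Of the 12 neighbours tested, 8 were called in Q140 minus WT, beside 33.0% of all genes.

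**Figure D4:**
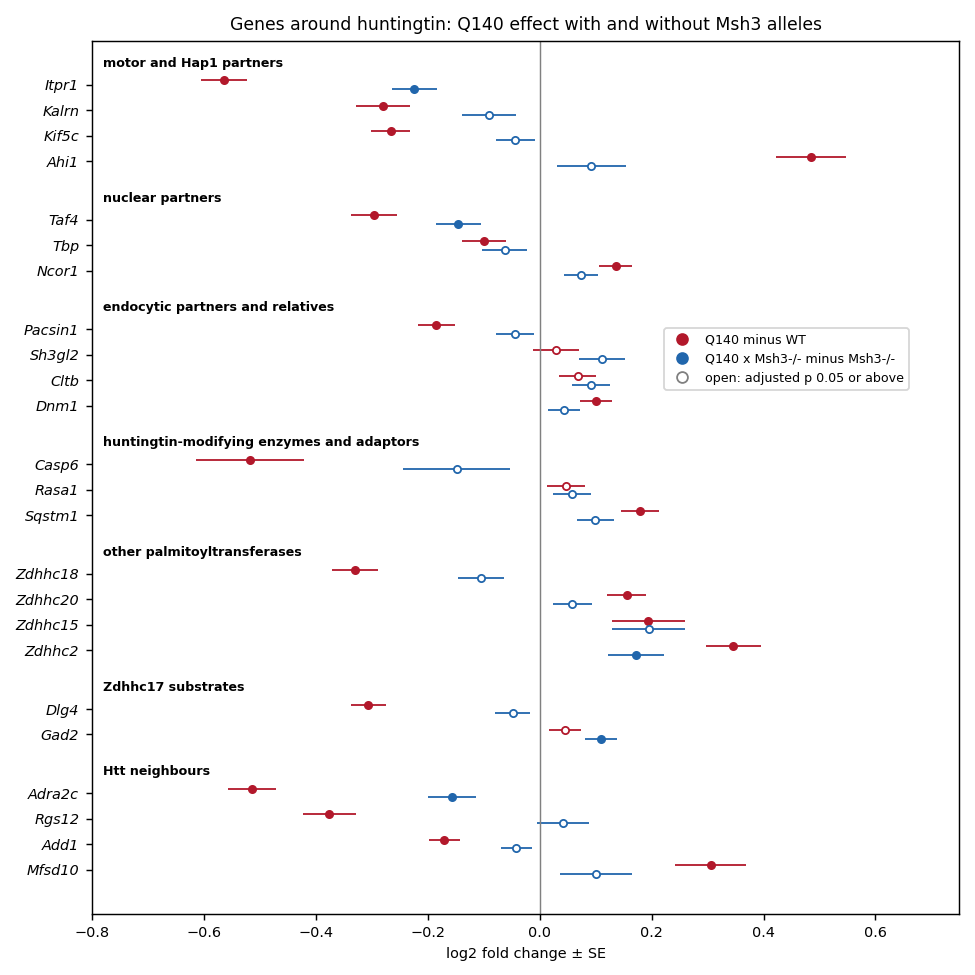
Log2 fold change ± SE of the genes named from each list, up to 4 with the smallest p in the averaged Q140 effect, for Q140 minus WT (red) and Q140 x Msh3-/- minus Msh3-/- (blue), with open points at an adjusted p of 0.05 or above. Itpr1 lies at -0.56 and -0.22, Ahi1 at 0.48 and 0.092, and most blue points lie nearer to 0; the 2 contrasts share no mice.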

How the data were processed

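Per the submitters' processing notes, reads were handled with STAR 2.7.5c, SAMtools 1.10 and HTSeq 0.12.3 on GRCm38 (mm10), and the labels name stranded TruSeq libraries. The annotation release and the strand setting are unknown, being not given in the sources used. The authors deposited whole-number counts per gene, and FPKM values that, for each gene, were its count over the library total times a fixed factor (largest relative deviation 4e-08 over 16319 genes). FPKM were therefore used for levels and in no test. Columns were tied to samples by their names. Replicate counts differed by more than sampling noise in every pair (lowest chi-square per degree of freedom 5.34). Replicates are separate mice by the labels.

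Genes passing edgeR's filterByExpr (minimum count 10) numbered 19714. The fit used edgeR 4.0.16 in R 4.3.3 with TMM, robust dispersions and the quasi-likelihood F-test on all 48 libraries, with terms for genotype and sex (41 residual degrees of freedom); 95% intervals use the t distribution with those degrees of freedom. DESeq2 1.42.0 was an alternative, beside other scalings, filters and terms. The script was tested on simulated data. The FPKM-implied length, coordinates and the Htt sequence were set against GENCODE M21 (GRCm38). Named genes were the 9 members, up to 4 called genes per list with the smallest p in the averaged Q140 effect, and those most correlated with a member (5 for Htt, 2 for the others); some of them are not reported here. The members, lists and tests were chosen with earlier results of these data known, and no list was given a test. Other marker lists, of interneurons, cortex and thalamus, were summed in the same way.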

Additional observations from a re-analysis of the deposited data

Results flagged for a closer look

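In 54 sets of 8 mice (9 genes in 6 genotypes), 5 had a mouse whose gap to its nearest neighbour was a larger share of the group's range than Dixon's critical value for 8 values, and chance alone does this in about 1 in 20 groups. Htt was 238 CPM in Msh3-/- male 3, with the next mouse at 223 CPM. Hip1 was 76.6 CPM in Q140 x Msh3-/- female 3, with the next at 81.4 CPM. Zdhhc17 was 159 CPM in WT female 1, with the next at 153 CPM. Zdhhc13 was 22.9 CPM in Q140 male 4, the 1 Q140 mouse within the WT range, with the next at 21.8 CPM, and it was 21.8 CPM in Msh3+/- male 3, with the next at 24.7 CPM.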

How the results depend on the processing

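The alternatives were RLE and total-count scaling, no low-count filter, DESeq2, a replicate block, no sex term, plate column as a term, and fits without the 4 libraries of another name prefix; fits without the 4 libraries that stand apart and without single Q140, Q140 x Msh3-/- or WT libraries were chosen after seeing the data. The larger changes in the number of members called are listed next, without smaller ones such as that for Q140 minus WT with total counts. The number became 3 for Q140 x Msh3+/- minus Msh3+/- with plate column and 3 for any difference among genotypes with total counts. For Q140 x Msh3-/- minus Msh3-/- it became 2 with DESeq2 and also 2 without the 4 libraries that stand apart (Zdhhc13 added). For Q140 x Msh3-/- minus Q140 it became 2 with DESeq2 (Htt added). Leaving out single libraries gave 3 to 5 members for Q140 minus WT and 0 to 2 for Q140 x Msh3-/- minus Q140. Htt estimates that were never called changed sign: with total counts the averaged Q140 effect was 0.015, that in Q140 x Msh3+/- minus Msh3+/- 0.020 and the female minus male difference -0.012, and the last was -0.0026 without the libraries of another prefix. The cause was not tested. Mice of the same sex and number in different genotypes mostly did not deviate together (120 pairs, median r -0.0278, range -0.287 to 0.366, 7 over 0.1). Yet all 4 libraries that stand apart carry number 1, and whether mice of that number share a source of variation was not tested. With the replicate block, Q140 minus WT kept 4 calls, and 4 in place of 5 members were called for any difference among genotypes. A member with few counts, such as F8a at 301 to 611 per library, is measured less precisely than Htt at 8704 to 13005.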
